A study of Mus musculus with 4 samples.

Results

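The genes used here to recognise the resident macrophages of the heart, followed in spatial transcriptomes of mouse heart sections, were Lyve1, Folr2, Timd4, Cd163, Mrc1, Cbr2 and F13a1. They were chosen by symbol, and all 7 were found among the 21885 genes of the count matrices. The sections came from mice of 8-12 weeks carrying Collagen1a1-GFP, a fluorescent reporter driven by a collagen gene of fibroblasts. The groups were an uninjured heart (control, n = 1), a heart 3 days after myocardial infarction (3 dpi, n = 1) and hearts 5 days after infarction (5 dpi, n = 2, of which 1 was labelled female and 1 male). Infarction was made by permanent ligation of the left anterior descending coronary artery, and 1 section was taken per heart. Y-linked transcripts went against the sex labels of the 5 dpi sections, so these are called by their labels only, and nothing below is read as a sex difference.

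Resident cardiac macrophages are seeded largely before birth, renew themselves in the tissue, and clear dying cells and debris. After an infarct they are lost from the ischaemic muscle while monocytes from the blood enter and become macrophages. Of the genes followed here, Lyve1 encodes a hyaluronan receptor that is also carried by lymphatic endothelium. Folr2 encodes a folate receptor, Timd4 a receptor for phosphatidylserine on dying cells, Cd163 the scavenger receptor for haemoglobin and haptoglobin, and Mrc1 the mannose receptor CD206. Cbr2 encodes a carbonyl reductase, and F13a1 the A subunit of coagulation factor XIII, which platelets hold as well. A spot covers several cells, so fewer cells of a kind and less RNA per cell cannot be told apart in any of the values below.

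After filtering, 1146 control spots were used, with 1741 of the 3 dpi section and 1535 and 1423 of the 5 dpi sections (labelled female, then labelled male, an order kept throughout). They held 3742105, 8374573, 9540940 and 8314946 UMIs outside mitochondrial genes, and mitochondrial genes took 40.1%, 21.4%, 13.3% and 14.3% of all UMIs. Levels are given as CPM, the UMIs (counted molecules) of a gene per 1000000 UMIs outside mitochondrial genes. Intervals are exact 95% Poisson intervals, which cover counting error only. The tissue showed its label: the 12 cardiomyocyte genes summed to 101300 CPM in the control. Over the 4 sections 1673 UMIs were counted for Mrc1, 1438 for Folr2, 1181 for F13a1, 1037 for Cbr2, 214 for Lyve1, 201 for Cd163 and 36 for Timd4. The last 3 were therefore measured with much less precision.

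Over whole sections the genes did not move as a group. Lyve1 was at 14.4 CPM in the control (interval 10.8 to 18.8), with 7.40 CPM (5.68 to 9.49) measured at 3 dpi, and 5.77 (4.34 to 7.50) and 5.17 (3.74 to 6.97) CPM in the later hearts. The infarcted sections were all below the control, with intervals that did not overlap its own. Per 100 spots, where the UMIs of other genes do not enter, the difference was smaller, with 4.71 Lyve1 UMIs in the control and 3.56, 3.58 and 3.02 in the infarcted sections, or 0.76, 0.76 and 0.64 times the control. Counts per spot are not corrected for depth. The median spot held 2976 UMIs outside mitochondrial genes in the control and 4393, 5474 and 5494 in the infarcted sections. Mrc1 was at 21.4 CPM in the control (interval 17.0 to 26.6), with 64.6 CPM (59.3 to 70.3) measured at 3 dpi, and 70.6 (65.4 to 76.2) and 45.5 (41.0 to 50.3) CPM in the later hearts, so it lay above the control in 3 of 3 infarcted sections. No test was run against the single control section, and a fixed rule of size was used instead. At least 2-fold higher than the control in all 3 infarcted sections was Mrc1, 1 of 6 members at 5 CPM or more, beside 25.3% of all 10969 such genes. At least 2-fold lower were 0 members, beside 4.90% of all genes, since Lyve1 reached 0.51 times its control level at 3 dpi against 0.40 and 0.36 times at 5 dpi. With CPM taken outside the cardiomyocyte genes, Lyve1 passed the rule for lower and Mrc1 no longer passed the rule for higher.

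In the same order of sections Folr2 was at 31.3, 61.5, 53.7 and 35.4 CPM, and F13a1 at 24.1, 47.2, 48.3 and 28.3 CPM. For both, the section labelled male lay near the control, with overlapping intervals, and the other infarcted sections above it. Cbr2 was at 32.1, 46.5, 28.3 and 31.0 CPM, highest at 3 dpi and much alike in the other sections. Per 100 spots, a scale not corrected for depth, Cbr2 was at 2.13, 1.68 and 1.73 times the control. On that scale Folr2 and F13a1 in the section labelled male were at 2.02 and 2.10 times the control. This stands beside 51.4% of all genes at least 2-fold higher in all 3 infarcted sections. Cd163 was at 7.48, 7.04, 8.49 and 3.97 CPM, with the section labelled male lowest. Timd4 was at 1.87, 1.07, 0.94 and 1.32 CPM from 7, 9, 9 and 11 UMIs, levels whose intervals all overlap. The plot of levels by section shows these patterns side by side.

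**Figure D1:**
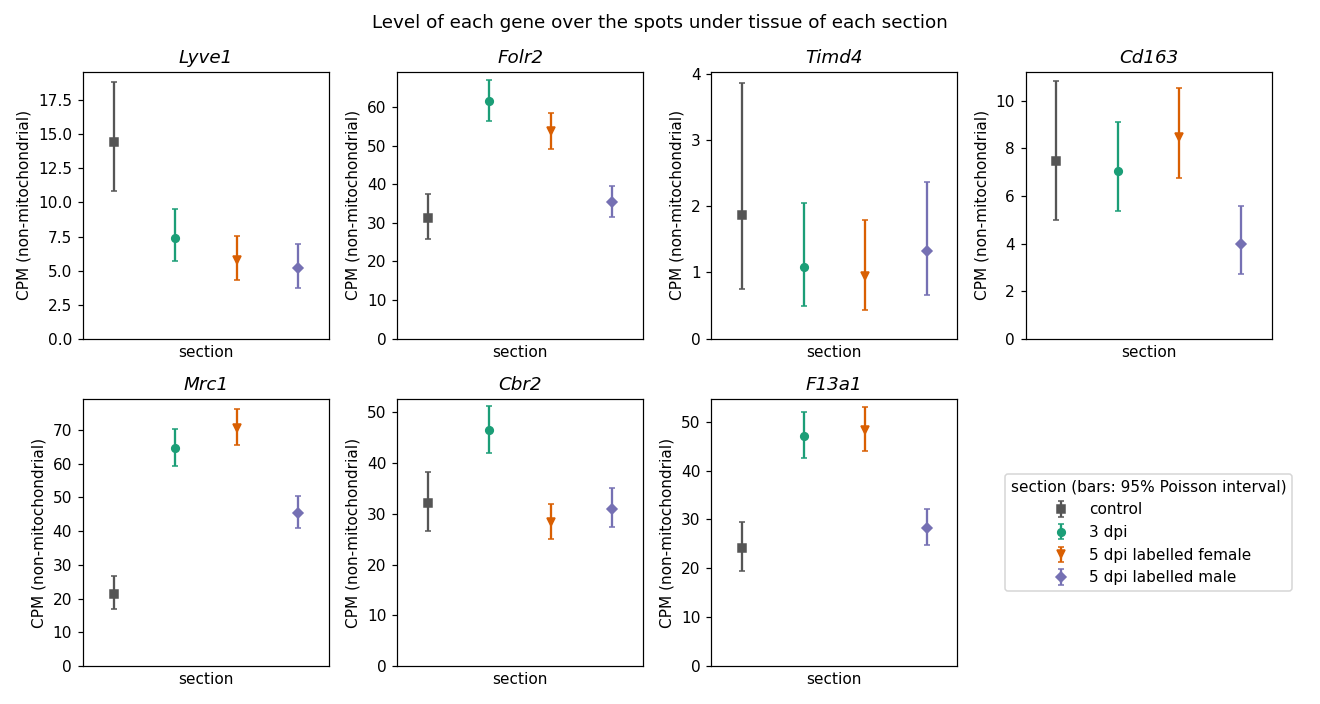
Level of each gene over the kept spots of the control, 3 dpi and both 5 dpi sections, in CPM outside mitochondrial genes; bars are exact 95% Poisson intervals. Lyve1 is lower and Mrc1 higher in all 3 infarcted sections than in the control, whereas Cbr2 at 5 dpi lies at the control level.

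Where in the heart these genes were found was asked by dividing each infarcted section into zones by its loss of cardiomyocyte RNA. The infarct zone (IZ) held 882, 1061 and 684 spots, border zone 2 (BZ2, within 2 spot steps of the IZ) 301, 136 and 104, border zone 1 (BZ1, 3 to 4 steps away) 155, 97 and 92, and the remote zone (RZ) 380, 200 and 533. The control had 0 IZ spots. Zones of the 3 infarcted sections were compared by edgeR's quasi-likelihood test over 9444 genes with the section as a block. Timd4 was too sparse to pass the filter on low counts, so 6 of 7 members were tested. The scaling of that test shifts the log2 fold changes of all genes away from CPM, by −0.42 where the IZ is set against the RZ, by −0.15 where BZ2 is, and by −0.26 between the IZ and BZ2.

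In the IZ 3 members fell and 1 rose relative to the RZ. This stands beside 27.0% of all tested genes lower and 26.8% higher, 53.8% in all, so a call alone is common in this comparison. The members split by gene: in CPM Lyve1, Cd163 and Cbr2 were lower in 3 of 3 sections, Mrc1 was higher in 3 of 3, and Folr2 and F13a1 did not pass the test. Counted per spot the direction of Cbr2 and Cd163 turned in some sections. That scale is not corrected for depth, and IZ spots held more UMIs on average than RZ spots. The IZ held 4990848, 7525906 and 4838496 UMIs outside mitochondrial genes in its 882, 1061 and 684 spots. The RZ held 1328489, 837522 and 2482199 in 380, 200 and 533. For spots of low against high cardiomyocyte share (below), 79.6% of genes were higher on that scale in all 3 infarcted sections. Cbr2 gave 18.9, 17.5 and 23.1 UMIs per 100 spots in the RZ and 21.0, 19.6 and 14.5 in the IZ, higher in the IZ of 2 sections. Cd163 gave 3.16, 5.50 and 3.57 against 2.95, 5.94 and 1.61, higher in 1. Lyve1 stayed lower in 3 of 3 on that scale, at 4.88 or more in the RZ against 2.38, 2.55 and 1.90 in the IZ.

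Lyve1 was at 15.1, 21.5 and 10.5 CPM in the RZ and 4.21, 3.59 and 2.69 CPM in the IZ (3 dpi, then 5 dpi). Each RZ value lay above each IZ value, and the RZ values lay around the 14.4 CPM of the control. The log2 fold change was −2.54 (SE 0.32, adjusted p 1.24e-06). This call was made under all 10 other settings tried. Just outside the infarct, in BZ2, Lyve1 was at 7.84, 4.40 and 0 CPM, from 10, 3 and 0 UMIs. The 0 allows up to 5.84 CPM at 3 counts, and up to 7.18 CPM by the exact interval. Against the RZ the log2 fold change in BZ2 was −1.83 (SE 0.45, adjusted p 0.0118). It was the only member called there, beside 4.80% of tested genes lower and 9.01% called in either direction. Without the 5 dpi section labelled female this p was 0.170, without the section labelled male 0.0805, and without the block for sections 0.107. With zones set at percentile 1 of the control Lyve1 was not called either. Over the settings that gave one, its adjusted p reached 0.367.

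Lymphatic vessels share Lyve1, so their markers are given beside it. The 51, 52, 50 and 36 spots with a Lyve1 UMI held 5 lymphatic markers at 268, 240, 565 and 162 CPM, and all other spots at 86.5, 57.7, 42.3 and 62.7 CPM. In every section the Lyve1 spots were thus the richer ones. Pan-macrophage genes were richer in Lyve1 spots only in the control, at 704 against 514 CPM, and lower at 3 dpi and 5 dpi. Spots of all zones were pooled for these values. Of the Lyve1 spots of the infarcted sections, 17, 23 and 9 lay in the IZ. The IZ held 50.7%, 69.1% and 48.1% of the kept spots, and more pan-macrophage RNA than the RZ. The part of the zones in these values was not tested. The other 6 members summed to 180, 287, 216 and 237 CPM in the Lyve1 spots and to 115, 226, 210 and 143 CPM elsewhere, so they too were higher in Lyve1 spots in all 4 sections, by little in the section labelled female. Of the 3 lymphatic markers that could be tested, Ccl21a, a chemokine of lymphatic endothelium, and Prox1, its defining transcription factor that heart muscle also expresses, fell in the IZ (log2 −0.89 and −2.48, adjusted p 0.0485 and 2.34e-06, with Ccl21a at 53.4, 41.8 and 39.5 CPM in the RZ and 23.6, 31.1 and 39.7 CPM in the IZ, so not lower in CPM in the section labelled male), while Flt4, the receptor for lymphatic growth factors, was at 0.41 (adjusted p 0.173). The part of lymphatic vessels in the Lyve1 values was not tested.

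Cd163 was at 9.03, 13.1 and 7.66 CPM in the RZ and 5.21, 8.37 and 2.27 CPM in the IZ. It was lower in the IZ of each section, although the ranges of the zones overlap. The log2 fold change was −1.42 (SE 0.35, adjusted p 0.0020), which became −1.02 (adjusted p 0.0661) without the 5 dpi section labelled male. Cbr2 was at 54.2, 41.8 and 49.6 CPM in the RZ and 37.1, 27.6 and 20.5 CPM in the IZ. Here the zones did not overlap, and the log2 fold change of −1.22 (SE 0.20, adjusted p 3.62e-05) was called under all 10 other settings. Timd4 had 2, 3 and 10 UMIs in the RZ and 6, 5 and 1 in the much larger IZ, or 1.51, 3.58 and 4.03 CPM against 1.20, 0.66 and 0.21 CPM. With no filter on low counts its log2 fold change was −2.57 (SE 0.78, adjusted p 0.0040).

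Mrc1 ran the other way. It was at 39.1, 47.8 and 29.0 CPM in the RZ and 76.9, 78.7 and 57.9 CPM in the IZ, with all IZ values above all RZ values. After scaling the log2 fold change was 0.49 (SE 0.16, adjusted p 0.0122). This call was lost without the block for sections (adjusted p 0.0597), without the 5 dpi section labelled male (0.0603) and with zones set at percentile 1 of the control (log2 0.00). Folr2 was at 40.6, 44.2 and 37.1 CPM in the RZ and 70.9, 59.0 and 37.6 CPM in the IZ, and F13a1 at 35.4, 40.6 and 34.6 CPM against 53.1, 52.8 and 25.8 CPM. In CPM Folr2 was higher in the IZ of 3 sections and F13a1 in 2, but after scaling their log2 fold changes were −0.02 (SE 0.22, adjusted p 0.952) and −0.25 (SE 0.20, adjusted p 0.320). Per 100 spots, not corrected for depth, both were higher in the IZ of 3 sections. Folr2 went from 14.2, 18.5 and 17.3 in the RZ to 40.1, 41.85 and 26.6 in the IZ. F13a1 went from 12.4, 17.0 and 16.1 to 30.05, 37.4 and 18.3. The map of spots sets Mrc1 beside Cbr2.

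**Figure D2:**
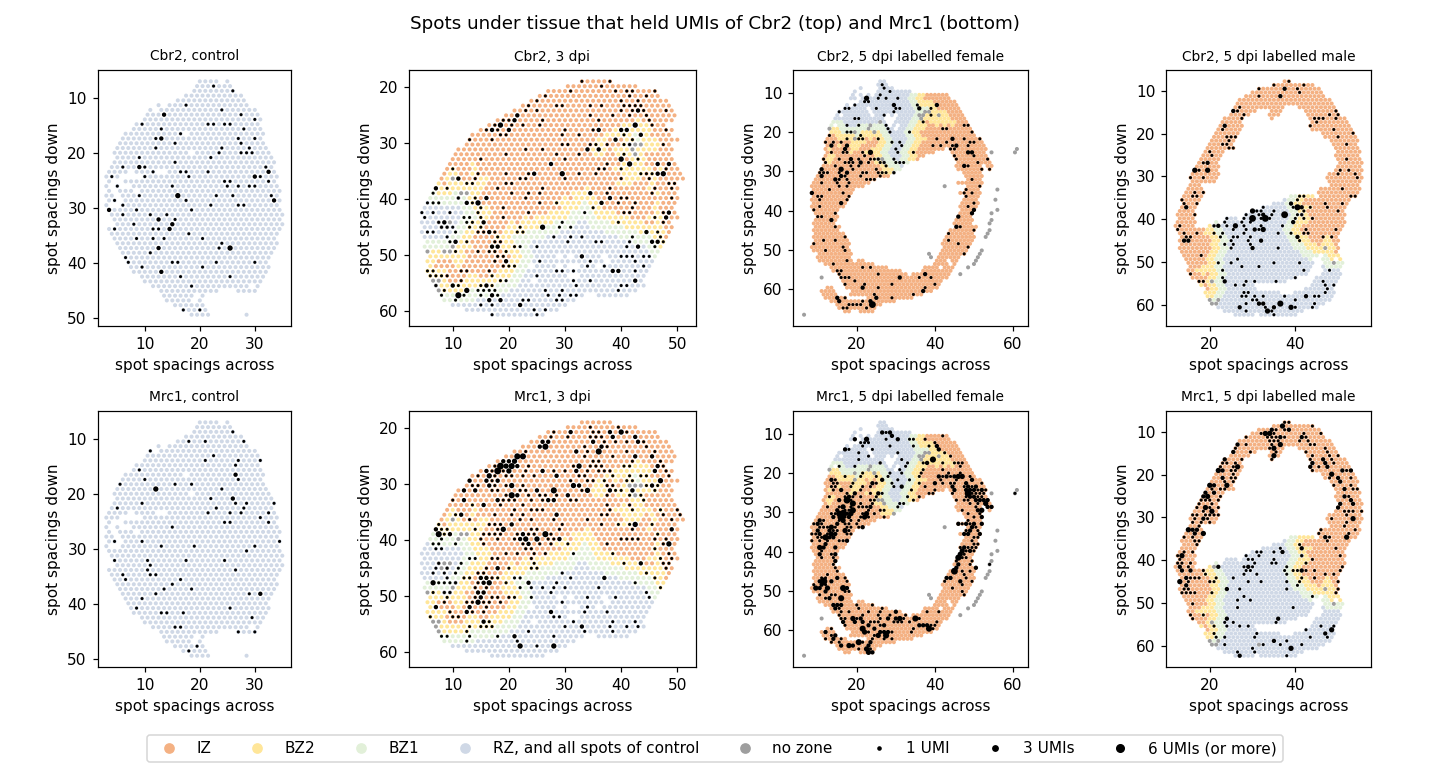
Kept spots of each section, placed in units of spot spacing and coloured by zone, with black dots where Cbr2 (top) or Mrc1 (bottom) was counted, sized by UMIs. Mrc1 UMIs are dense in the IZ of the infarcted sections, where its level was 76.9, 78.7 and 57.9 CPM, while Cbr2 was lower there (37.1, 27.6 and 20.5 CPM) than in the RZ (54.2, 41.8 and 49.6 CPM) in CPM, though per 100 spots it was higher in the IZ in all but the section labelled male.

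The sequences before the start of Mrc1, which rose in the IZ, and of Cbr2 and Cd163, which fell, are shown. All 3 genes are used here to recognise resident macrophages, and they moved apart. Whether their RNA came from the same cells was not tested. Each is the 250 bases before the RefSeq start on build GRCm38.p6, written 5′ to 3′ on the strand of the gene, with capitals marking the core GAGGAA of sites for the myeloid factor PU.1 or its reverse complement TTCCTC. Mrc1 lies on chromosome 2 at chr2:14229164-14229413 (+), Cbr2 at chr11:120732022-120732271 (−) and Cd163 at chr6:124304401-124304650 (+).
Mrc1: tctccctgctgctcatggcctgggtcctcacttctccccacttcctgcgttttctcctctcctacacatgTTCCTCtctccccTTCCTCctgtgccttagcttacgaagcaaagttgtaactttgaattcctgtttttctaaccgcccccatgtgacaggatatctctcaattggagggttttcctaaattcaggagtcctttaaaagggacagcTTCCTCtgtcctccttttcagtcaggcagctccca
Cbr2: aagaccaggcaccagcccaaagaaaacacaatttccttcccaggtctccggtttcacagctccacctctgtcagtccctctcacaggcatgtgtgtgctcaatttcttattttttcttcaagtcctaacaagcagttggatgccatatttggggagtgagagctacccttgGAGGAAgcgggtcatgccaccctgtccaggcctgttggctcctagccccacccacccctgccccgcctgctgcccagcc
Cd163: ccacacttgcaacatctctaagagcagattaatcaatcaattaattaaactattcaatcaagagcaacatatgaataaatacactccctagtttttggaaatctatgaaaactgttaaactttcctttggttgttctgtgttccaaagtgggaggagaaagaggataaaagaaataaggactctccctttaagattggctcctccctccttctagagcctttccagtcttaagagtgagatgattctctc
The core occurred 3 times before Mrc1, 1 time before Cbr2 and 0 times before Cd163. It occurred 1 time in 1 of the 2 windows of F13a1, which did not pass the test, and 0 times in the windows of Folr2 and Timd4. It was found in 23.3% of 32851 windows of the same length. The motif TGCTGA, the core of sites for MAF factors, occurred in none of the 3 windows on either strand, against 16.1% of all windows. It occurred 2 times before Timd4 and 1 time in each of the 2 windows of Folr2. Entries were found for 6 of 7 members, and a match is a description of letters and not of a bound site.

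Pan-macrophage, recruited monocyte and lipid-associated genes all rose in the IZ. All 8 pan-macrophage genes rose, among them the complement genes C1qb and C1qa (log2 1.99 and 1.47) and C1qc (1.59), and so did 7 of 7 recruited monocyte genes, among them Plac8 and Ccr2 (2.61 and 2.47). All 7 lipid-associated macrophage genes rose, with Spp1, Fabp5 and Lgals3 holding the most UMIs (log2 5.83, 1.66 and 3.56). The medians of these lists were 1.98, 2.95 and 4.32, against −0.74 over the 6 members tested and 0.05 over all genes. A further list of 20 genes reported in resident macrophages did not follow the members. Of its 13 tested genes 8 rose, 2 fell and 3 did not pass, with a median of 0.79. Its leading genes in UMIs were Pf4, a chemokine (log2 1.83), Selenop, a selenium carrier (0.50), and Stab1, a scavenger receptor (1.21). The 2 that fell, named after their values were seen, were the lectin genes Mgl2 (log2 −3.38, SE 0.32, adjusted p 2.24e-08) and Fcna (−1.05, SE 0.29, adjusted p 0.0050).

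**Figure D3:**
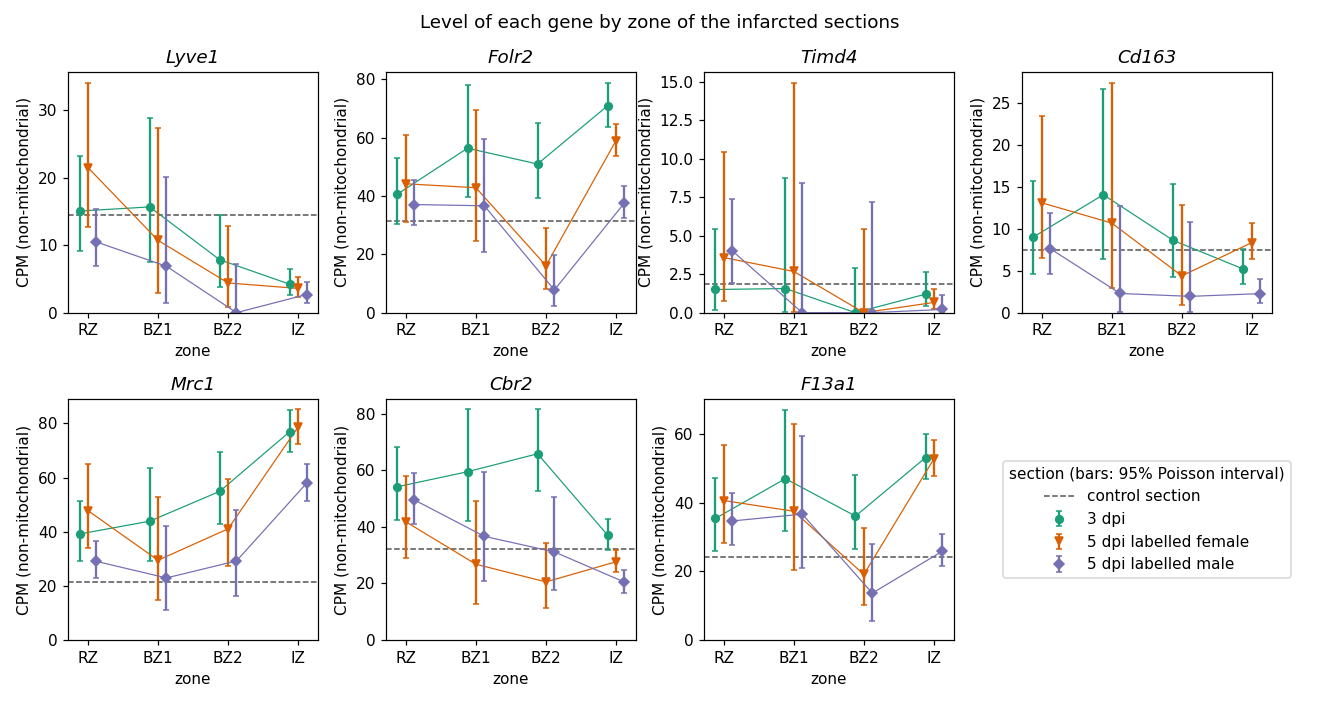
Level of each gene in RZ, BZ1, BZ2 and IZ of the 3 infarcted sections, in CPM outside mitochondrial genes, with exact 95% Poisson intervals; the dashed line is the control section. Lyve1 is lower in BZ2 and IZ than in RZ in all 3 sections, Mrc1 is highest in the IZ, and Folr2 and F13a1 are below their RZ level in BZ2 at 5 dpi and not at 3 dpi, a difference that did not pass its test (edgeR adjusted p 0.142 and 0.715).

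The same counts were then read per macrophage RNA, since the IZ holds far more of it. Pan-macrophage genes summed to 524 CPM in the control, 1093, 1267 and 939 CPM in the RZ and 3996, 6009 and 6183 CPM in the IZ. Per 1000 pan-macrophage UMIs, Lyve1 gave 27.6 in the control, 13.8, 17.0 and 11.2 in the RZ and 1.05, 0.60 and 0.43 in the IZ. Cbr2 gave 61.3 in the control, 49.6, 33.0 and 52.8 in the RZ and 9.28, 4.60 and 3.31 in the IZ. Mrc1 gave 40.8, then 35.8, 37.7 and 30.9, then 19.3, 13.1 and 9.36, so it too was lower in each IZ on this scale. For Folr2 the IZ held 17.8, 9.82 and 6.08 against 37.2, 34.9 and 39.5 in the RZ, and for F13a1 13.3, 8.78 and 4.18 against 32.4, 32.1 and 36.9. Both were thus ordered by section in the IZ and close to each other in the RZ.

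On this scale all 6 tested members fell in the IZ. Their log2 fold changes were −4.38 for Lyve1 (SE 0.43), −3.28 for Cd163 (SE 0.45), −3.06 for Cbr2 (SE 0.29), −2.08 for F13a1 (SE 0.29), −1.89 for Folr2 (SE 0.29) and −1.38 for Mrc1 (SE 0.27). Any gene that rises less than macrophage RNA falls here, and 89.5% of all tested genes did (90.7% were called in either direction), with a median of −1.80. Mrc1 alone among the 6 lay above that median. The members' median was −2.57, that of the further resident list −1.05 (10 lower and 3 not passing of 13), of the recruited monocyte list 1.19 (5 higher, 0 lower) and of the lipid-associated list 2.495 (6 higher, 0 lower).

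**Figure D4:**
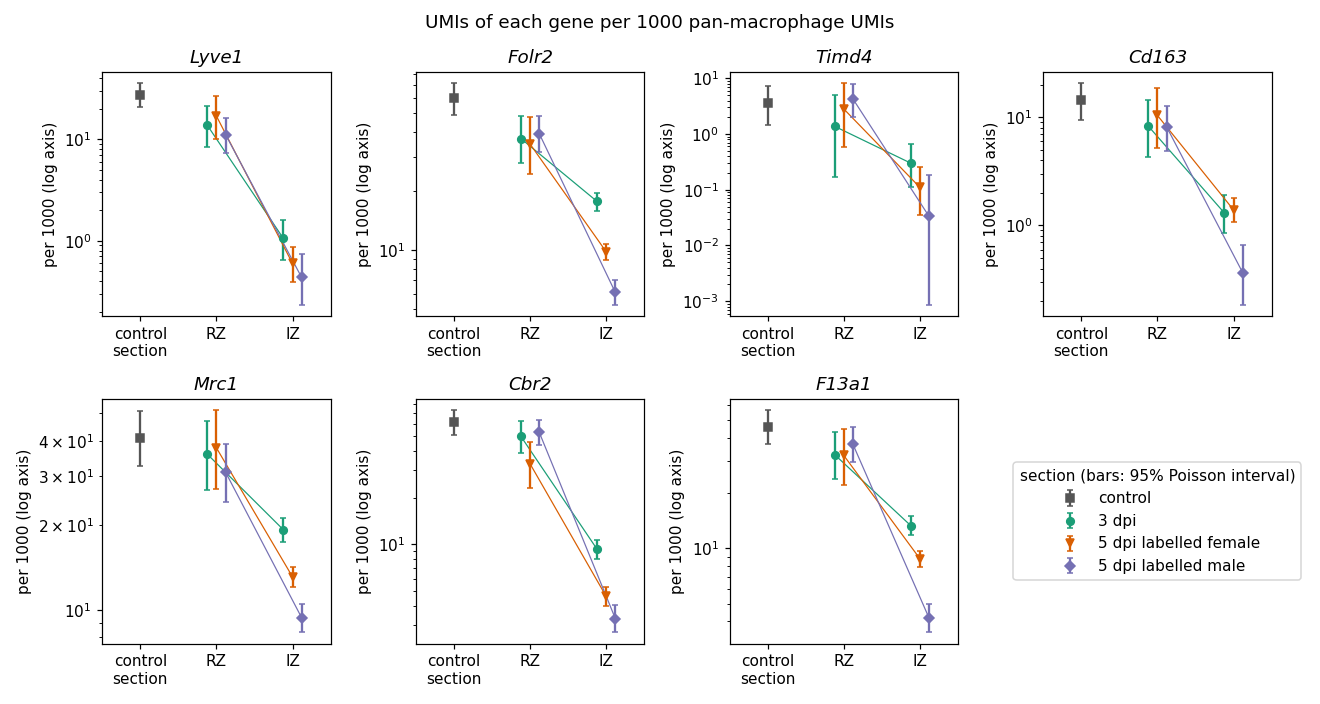
UMIs of each gene per 1000 pan-macrophage UMIs in the control section and in the RZ and IZ of the 3 infarcted sections, on a log axis, with exact 95% Poisson intervals. All 7 genes lie lower in the IZ than in the RZ of their own section, with Lyve1 going from between 11.2 and 17.0 to between 0.43 and 1.05.

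Around the edge of the infarct the values of Folr2 and F13a1 were set side by side for the time points, whose difference did not pass its test. Folr2 was at 40.6 CPM in the RZ and 51.0 CPM in BZ2 at 3 dpi, but at 44.2 and 37.1 CPM in the RZ and 16.1 and 7.78 CPM in BZ2 at 5 dpi, the last from 4 UMIs. F13a1 was at 35.4 and 36.1 CPM at 3 dpi, and went from 40.6 and 34.6 CPM to 19.1 and 13.6 CPM at 5 dpi. Over the 3 sections neither passed for BZ2 against RZ (log2 −0.77, SE 0.30, adjusted p 0.119 and −0.82, SE 0.27, adjusted p 0.0699). Without the 3 dpi section both did (−1.94, adjusted p 2.68e-04 and −1.46, adjusted p 0.0071). With all 3 sections both also passed with no filter on low counts (adjusted p 0.0163 and 0.0134) and with a lower cardiomyocyte limit for the zones (0.0201 and 0.0344). The difference between 5 dpi and 3 dpi was itself tested, a test added after these values were seen. It was −2.11 for Folr2 (SE 0.48, unadjusted p 1.05e-04, adjusted p 0.142) and −1.33 for F13a1 (SE 0.52, adjusted p 0.715), neither past the threshold, where 0.0318% of genes were. No member passed for the IZ against the RZ or BZ2 either, where 2.99% and 1.72% of genes did. The lone 3 dpi section is assumed there to vary like the 5 dpi ones.

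From BZ2 into the IZ, Folr2 (log2 0.75, SE 0.27, adjusted p 0.0335) and Mrc1 (0.49, SE 0.17, adjusted p 0.0332) rose and Cbr2 fell (−0.74, SE 0.24, adjusted p 0.0180), beside 14.5% of tested genes higher and 19.9% lower, 34.4% in all. Cbr2 was lower in the IZ in 2 of 3 sections in CPM and higher in the section labelled female (20.5 CPM in BZ2 and 27.6 CPM in the IZ). F13a1, Cd163 and Lyve1 did not pass, at 0.57, −0.34 and −0.70. The calls changed with the settings. Folr2 and Mrc1 were lost without either 5 dpi section and with zones set at percentile 1 of control spots, and Mrc1 also under DESeq2. Cbr2 was lost without the 3 dpi section or the 5 dpi section labelled male, under DESeq2 and with the lower cardiomyocyte limit. None of these 3 was called without the block for sections. F13a1 was called higher with no filter, with the lower limit and without the 3 dpi section, and Lyve1 lower with zones set at percentile 1.

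Inside the IZ, spots over 4 steps from its edge (core) were compared with those 1 to 2 steps inside (rim), also after the data were seen. F13a1 was at 30.6, 14.5 and 9.51 CPM in the rim and 86.2, 62.1 and 28.7 CPM in the core. It rose in the core (log2 1.42, SE 0.25, adjusted p 1.21e-04). Mrc1 rose from 58.2, 52.6 and 32.3 to 99.8, 83.8 and 63.7 CPM (log2 0.64, SE 0.16, adjusted p 0.0035), beside 7.45% of 9702 genes higher. Folr2 (0.34), Cbr2 (−0.34) and Lyve1 (−0.11) did not pass, nor did Cd163 (1.29, SE 0.47, adjusted p 0.0525). The sum of the pan-macrophage genes went the same way, from 3318, 4235 and 3556 to 4428, 6132 and 6585 CPM. By gene, Fcgr1, C1qb, Cd68, Adgre1 and Mpeg1 passed as higher in the core. C1qa, C1qc and Csf1r did not (edgeR adjusted p 0.242, 0.343 and 0.083). The 5 platelet markers went from 8.53, 9.97 and 9.51 to 89.5, 16.0 and 15.5 CPM, and their part in the F13a1 values was not tested.

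**Figure D5:**
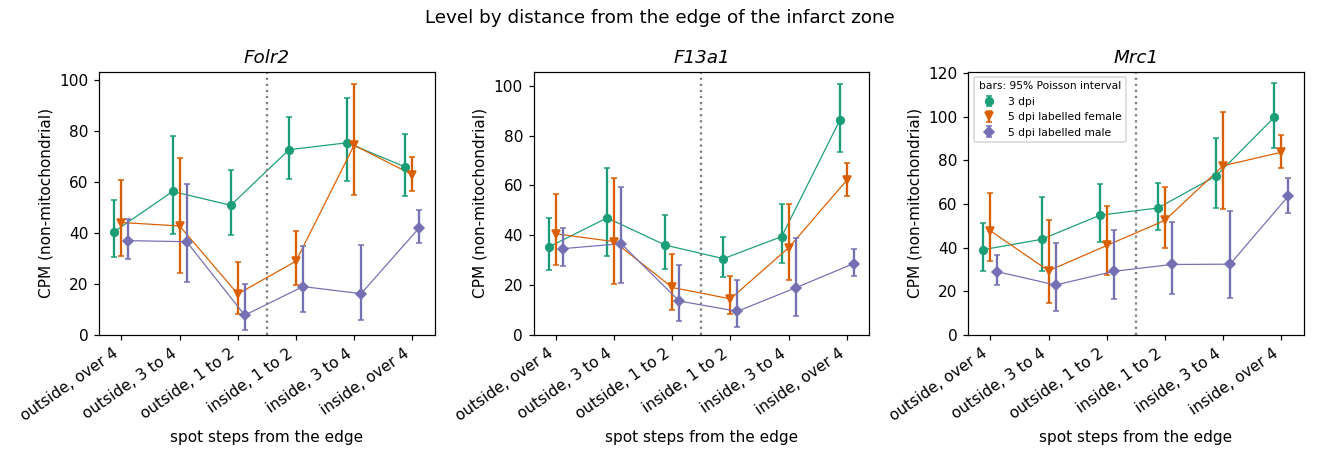
Level of Folr2, F13a1 and Mrc1 by spot steps outside or inside the edge of the IZ (dotted line), in CPM with exact 95% Poisson intervals, for the 3 infarcted sections. At 5 dpi Folr2 and F13a1 are lowest next to the edge, and F13a1 and Mrc1 are highest over 4 steps inside in all 3 sections except F13a1 in the section labelled male.

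The share of cardiomyocyte UMIs, taken relative to the 90th percentile of the own section, is the quantity from which the zones were made, so the values by share describe the same spots more finely and are no second line of evidence. Spots with a share under 0.1 were compared with spots at 0.75 and over. Mrc1 was at 112, 89.5 and 69.9 CPM in the former and 43.8, 44.6 and 31.5 CPM in the latter, a mean log2 ratio of 1.17 ± 0.18 (SD, n = 3). Folr2 was at 94.7, 68.4 and 46.0 against 51.7, 38.5 and 34.1 CPM, a ratio of 0.71 ± 0.24. These 2 of the 6 members at 5 CPM or more were higher in 3 of 3 sections, beside 57.5% of all such genes. Lyve1 (−1.69 ± 0.78), Cd163 (−0.65 ± 0.60), Cbr2 (−0.62 ± 0.23) and Timd4 (measured at 0.89 CPM or less in the former and at 1.70 CPM or more in the latter) were lower in 3 of 3, beside 21.3% of genes at 5 CPM or more, among which Timd4 is not counted. At 3 dpi Timd4 had 0 UMIs in the former, which allows up to 2.04 CPM by the exact interval. Its difference there from 1.70 CPM, from 3 UMIs, is thus not resolved. Counted per 100 spots, 1 of these 4 remained lower in all sections, Timd4, and the share of all genes lower also fell, to 10.7%, with 79.6% higher. On that scale Lyve1 at 3 dpi was at 6.35 in the former and 5.63 in the latter. F13a1 was at 89.7, 64.7 and 32.7 against 40.9, 35.9 and 32.8 CPM, higher at 3 dpi and in the section labelled female only. Per 100 spots F13a1 was higher in 3 of 3 sections, at 4.44, 3.13 and 1.54 times. Between these ends the course was not even: at 5 dpi Folr2 was lowest in spots of intermediate share, at 26.6 and 16.4 CPM.

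Within the IZ, spots were also ranked by their share of pan-macrophage UMIs, a description added after the data were seen. From the poorest to the richest tertile pan-macrophage genes went from 1997, 3073 and 2764 to 6234, 8915 and 9835 CPM. Folr2 went from 44.8, 31.3 and 23.7 to 98.9, 90.1 and 60.0 CPM, Mrc1 from 47.9, 47.3 and 31.8 to 108, 109 and 97.1 CPM and F13a1 from 30.1, 34.1 and 17.5 to 85.2, 75.0 and 33.6 CPM. With Cbr2 and Cd163, 5 of the 6 members at 5 CPM or more were higher in the richest tertile in 3 of 3 sections, beside 28.0% of all such genes. Lyve1 went from 3.68, 5.61 and 1.87 to 2.86, 1.48 and 0.60 CPM, from at most 14 UMIs. Its middle tertile was at 6.20, 3.87 and 5.75 CPM, above both ends at 3 dpi and in the section labelled male. Between the ends, Lyve1 was the only member lower in 3 of 3, beside 24.8% of genes. The sum of the lymphatic markers also fell, from 55.9, 97.8 and 79.8 to 38.9, 22.9 and 50.4 CPM. That sum includes Prox1, which heart muscle also expresses, and it was not split by gene. The part of muscle in it was not tested.

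In the RZ the levels of the members were set beside the single control, with no test. Lyve1 averaged 15.7 ± 5.54 CPM there (SD, n = 3) against 14.4 in the control, Cd163 9.94 ± 2.85 against 7.48, Folr2 40.6 ± 3.56 against 31.3, Cbr2 48.5 ± 6.27 against 32.1, F13a1 36.9 ± 3.24 against 24.1 and Mrc1 38.6 ± 9.39 against 21.4 CPM. At least 2-fold higher were 0 members, beside 5.18% of 10416 genes, and 2-fold lower 0, beside 0.355%.

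Over 13 units, the 12 zones and the control section, the pattern of each member was set against 8251 genes by Pearson's r of log2(CPM + 5). These units share sections and differ in depth, so r is a description. F13a1 and Folr2 were most alike among the members (r = 0.95), followed by Lyve1 and Cd163 (0.80), and Mrc1 and Lyve1 were unlike (−0.24). Outside the members, the nearest to Lyve1 were Ulk1, Mitf and Chd6 (0.91, 0.90 and 0.90), to Cd163 Tmem250-ps, Epb41 and Ulk1 (0.94, 0.89 and 0.86), and to Mrc1 Skil, Slfn2 and C5ar1 (0.95, 0.95 and 0.95). Nearest to Folr2 were Ms4a4d, Tmem248 and Igtp (0.87, 0.87 and 0.86), to Cbr2 Ung, Mrpl47 and Mrps7 (0.89, 0.87 and 0.86), and to F13a1 Ppp2r5e, Rbm22 and Lsm5 (0.84, 0.81 and 0.80). Timd4, with 36 UMIs, was left out of the search for the nearest genes.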

How the data were processed

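UMI counts per spot and gene, as deposited, were made by the authors with Space Ranger from Visium libraries of 10 µm heart sections. The labels name the genome build mm10, and the methods a modified Ensembl-based reference that includes GFP. The authors chose tissue spots manually in Loupe Browser. Of these, spots below 500 UMIs or 250 genes, or above 50% mitochondrial UMIs, were dropped, and levels were computed over UMIs outside the 13 mitochondrial genes.

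Patches of at least 10 spots whose share of 12 cardiomyocyte genes was under 0.5 times the 90th percentile of their section formed the IZ. The distance to it in spot steps gave BZ2, BZ1 and RZ. UMIs were summed per zone and section (12 sums) and tested with edgeR 4.0.16 (R 4.3.3, limma 3.58.1; quasi-likelihood test, TMM scaling, section as a block), with Benjamini-Hochberg adjustment over all genes tested and calls at an adjusted p under 0.05. A second fit used the pan-macrophage UMIs as the offset. Hearts are the replicates, and p-values measure how the zone differences vary between these 3 sections. Differences in level between sections are taken up by the block. Scripts were tested on simulated data. DESeq2 1.42.0 was an alternative, and other tools were Python 3.11.15, NumPy 2.4.6, SciPy 1.17.1 and pandas 2.3.3. Intervals and the limit set by 0 UMIs (3 counts) cover counting error only. The 7 genes and the lists were chosen with earlier results of these data known. All 7 genes are named, together with the 3 genes of each other macrophage list with the most UMIs and the 3 genes nearest in pattern to each gene with at least 100 UMIs, among genes with a mean of at least 10 CPM. A gene that this rule would name is not reported here. The comparison of 5 dpi with 3 dpi, of core with rim and of tertiles was added after seeing the data. Array barcodes are shared between sections, and 129 were kept in all 4. Promoter windows came from RefSeq.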

Additional observations from a re-analysis of the deposited data

Results flagged for a closer look

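In CPM ratios, before scaling, the direction of 4 results differed between 3 dpi and both 5 dpi sections. For F13a1 the ratio at 3 dpi was 1.02, and for Cd163 that of the section labelled male was 1.17 with 1 UMI in BZ2, so these 2 directions rest on values near 1 that the scaling shifts of −0.15 and −0.26 reach. The difference in scaled log2 fold change, 5 dpi minus 3 dpi, for BZ2 against RZ was −2.11 for Folr2 (edgeR adjusted p 0.142), −1.33 for F13a1 (0.715) and −1.18 for Cbr2 (0.668). For IZ against BZ2 it was 1.49 for Cd163 (adjusted p 0.752). None passed the threshold, and unadjusted p was 1.05e-04 for Folr2, 0.0149 for F13a1, 0.0115 for Cbr2 and 0.132 for Cd163.

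In the 5 dpi section labelled male, 623 spots of the matrix were not marked as tissue. Mrc1 was at 42.6 CPM there (95 UMIs, interval 34.5 to 52.1), above the 21.4 CPM of the control section and near the 45.5 CPM of the tissue of the same section. Folr2 was at 30.5, F13a1 at 30.1, Cbr2 at 15.7, Lyve1 at 5.83 and Cd163 at 4.04 CPM in these spots. Timd4 had 0 UMIs, which allows up to 1.35 CPM at 3 counts, and up to 1.655 CPM by the exact interval.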

How the results depend on the processing

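Of the 4 members called between IZ and RZ, 2 were called with the cardiomyocyte limit at percentile 1 of the control (5 tested, Cd163 having been filtered out) and 3 with no replicate block, and leaving out 1 section gave 2 to 4 (2 without the 5 dpi section labelled male). For BZ2 against RZ, where 1 was called, DESeq2 called 0 (4 at an unadjusted p under 0.05, with the adjusted p of Lyve1 and Cd163 not given by the tool), the percentile 1 limit 0 and no block 0 (edgeR, 1 each at an unadjusted p under 0.05), no filter on low counts 3, a lower cardiomyocyte limit 4, and leaving out 1 section 0 to 4. Either 5 dpi section left out gave 0, with 1 each at an unadjusted p under 0.05. For IZ against BZ2, where 3 were called, DESeq2 called 1, no block 0 (1 at an unadjusted p under 0.05), and leaving out 1 section 0 to 3 (0 without the 5 dpi section labelled male, 4 at an unadjusted p under 0.05). Folr2 reversed there to −0.10 with the percentile 1 limit. The cause was not tested. Against the control, the 1 member at least 2-fold higher became 0 outside the cardiomyocyte genes (22.7% of all genes) and 3 per 100 spots (51.4%), and 0 lower became 1 outside the cardiomyocyte genes (5.92%). By cardiomyocyte share, 4 lower became 1 per 100 spots, where the share of all genes fell from 21.3% to 10.7%.

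Over all genes, 851 calls for BZ2 against RZ became 1466 (lower limit), 38 (percentile 1), 56 (no block), and 160 and 399 without the 5 dpi section labelled female and male. For IZ against BZ2, 3249 became 2100 without the section labelled female. Per pan-macrophage UMI, IZ against RZ, all 5 to 7 members tested were lower under every alternative run, as were most genes (5937 of 7642 with the percentile 1 limit, 10437 of 16015 with no filter, 9022 of 9444 with general myeloid genes as the offset). Lyve1, Cd163 and Timd4, with at most 214 UMIs, are limited most by depth.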
